A study of Mus musculus with 6 samples.

Results

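The monoamine neuron genes are 10 genes that mark the neurons releasing serotonin, noradrenaline and dopamine, or that make, carry and break down these transmitters. They were taken by symbol from a table of 56748 genes, and all 10 were found. The symbols are Tph2, Slc6a4, Fev, Dbh, Slc6a2, Th, Ddc, Slc18a2, Maoa and Maob. They were picked because earlier work on these files had shown most of them raised in 1 library, MeHg replicate 2. Their levels and fold changes are therefore a description, and counts of members past a threshold are given beside the share of all genes without being used as support.

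RNA was sequenced from the cerebellum of 6 C57BL/6J mice aged 90 to 120 days. The dams of 3 mice had drunk water with 0.2 ppm methylmercury (MeHg), an organic mercury compound toxic to neurons, from the first day of pregnancy until birth. Water at 0 ppm was given to the dams of the 3 control mice. The mice were thus exposed before birth and examined as adults, and the labels name neither dam nor litter, so the spread between libraries may include litter. MeHg replicate 2 and control replicate 3 are labelled male, and the remaining 2 mice of each group female. Control replicate 2, labelled female, held 5 counts of Xist, the RNA of the inactive X chromosome, against 15226 in control replicate 1. Its label and its Xist level thus disagree, and the balance of sex given by the labels may not hold. Total counts per library lay between 14116088 and 20303833. Markers of granule and Purkinje cells, the main neurons of the cerebellum, were abundant in every library, with a summed level between 10055 and 14413 CPM (counts scaled to a common library total) over 14 genes.

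Monoamine neurons are few in number but send axons through most of the brain. Serotonin is made in the raphe nuclei, noradrenaline chiefly in the locus coeruleus of the pons, and dopamine chiefly in the ventral midbrain. Their axons reach the cerebellum, while their cell bodies, which hold most of their messenger RNA, lie outside it. Synthesis starts with a hydroxylase, Tph2 for serotonin or Th for the catecholamines, followed by the decarboxylase Ddc, and Dbh then turns dopamine into noradrenaline. Slc18a2 loads all of these transmitters into vesicles, plasma membrane transporters take them back up, and the monoamine oxidases Maoa and Maob degrade them.

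Promoter sequences were available from RefSeq (GRCm38.p6 table) for 8 of the 10 genes. Slc6a2 and Maob had no entry. Each window runs from 250 bases before to 50 bases after a RefSeq start site, and positions in GRCm39 (mm39) come from an exact match of the window to that genome. The 4 windows below belong to genes that were all highest in the same library, and they are shown because they share letters. Capitals mark the cAMP response element, TGACGTCA, the letters of a GATA site, written AGATAA, and those of a common form of the TATA box, written TATAAA. Both strands were searched, also for an ETS core, written CCGGAA.
Tph2, chr10:115020878-115021177, minus strand: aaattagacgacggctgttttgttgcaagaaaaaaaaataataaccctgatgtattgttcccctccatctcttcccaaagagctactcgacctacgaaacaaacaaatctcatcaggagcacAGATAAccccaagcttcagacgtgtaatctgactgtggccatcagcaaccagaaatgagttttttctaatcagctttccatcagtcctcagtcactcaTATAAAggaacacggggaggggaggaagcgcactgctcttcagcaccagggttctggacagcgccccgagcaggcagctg
Fev, chr1:74924518-74924817, minus strand: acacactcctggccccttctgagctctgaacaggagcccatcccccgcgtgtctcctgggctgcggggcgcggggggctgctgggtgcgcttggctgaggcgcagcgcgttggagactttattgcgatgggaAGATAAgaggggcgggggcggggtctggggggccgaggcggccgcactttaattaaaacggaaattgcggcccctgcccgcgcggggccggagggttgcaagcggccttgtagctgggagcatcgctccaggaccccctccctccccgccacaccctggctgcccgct
Th, chr7:142453683-142453982, minus strand: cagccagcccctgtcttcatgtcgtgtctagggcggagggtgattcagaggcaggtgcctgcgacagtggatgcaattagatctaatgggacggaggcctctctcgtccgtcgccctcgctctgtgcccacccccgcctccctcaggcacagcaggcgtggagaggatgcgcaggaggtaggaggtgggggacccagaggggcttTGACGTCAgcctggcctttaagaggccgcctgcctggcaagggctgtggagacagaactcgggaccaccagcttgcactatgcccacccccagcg
Slc18a2, chr19:59249060-59249359, plus strand: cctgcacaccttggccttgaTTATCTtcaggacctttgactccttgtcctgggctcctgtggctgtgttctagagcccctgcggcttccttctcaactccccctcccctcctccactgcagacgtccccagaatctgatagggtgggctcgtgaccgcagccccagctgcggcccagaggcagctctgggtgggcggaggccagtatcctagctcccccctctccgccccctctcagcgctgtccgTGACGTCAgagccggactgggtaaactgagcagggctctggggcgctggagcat

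The cAMP response element was found in Th, with its first base at -45 from the start site, and in Slc18a2, at -4. The RefSeq start site of Th lies 31133 bases from the start of the deposited gene, inside its span, and that of Slc18a2 18 bases from it. It occurs in 1.79% of all 32851 promoter windows of that length. The letters AGATAA were found in Tph2 (-128), in Fev (-118) and, on the opposite strand, in Slc18a2 (-230), against 11.2% of all windows. TATAAA was found in Tph2 (-30) and, on the opposite strand, in 1 of the 2 Ddc windows (-68), against 13.6%. CCGGAA, present in 14.9% of windows, was found in none of the members' windows. These are matches of letters only, and the data hold no measure of binding.

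Among the serotonin markers, Tph2 and Slc6a4 had the widest gaps of all members between MeHg replicate 2 and the next library. Tph2, the rate-limiting enzyme of serotonin synthesis in neurons (chromosome 10, 114914546 to 115020927, mm39), was at 0.203, 0.948 and 0.503 CPM in controls and at 0.556, 67.5 and 1.48 CPM in MeHg, each in the order of replicates 1, 2 and 3, which is kept throughout. The count in MeHg replicate 2 was 1031, against 4 to 22 in the other 5 libraries. MeHg replicate 2 thus stood alone, at 45.5 times the next library (95% exact interval 29.9 to 72.9). These intervals, conditional on the 2 counts compared, cover counting error only.

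Slc6a4, the serotonin transporter that returns serotonin to the neuron (chromosome 11, 76889429 to 76923166), had the wider of these gaps. Its counts were 2, 1 and 0 in controls and 1, 720 and 8 in MeHg. In CPM it was at 47.1 in MeHg replicate 2 and at 0.539 in MeHg replicate 3, the next highest, a ratio of 87.4 (44.1 to 203). The 0 in control replicate 3 allows a level of up to 0.216 CPM (3 counts). Because it was detected at depth in only 1 library, Slc6a4 did not pass the filter on low counts, and 9 of the 10 members entered the fit across all genes.

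Fev, the ETS transcription factor that maintains serotonin neuron identity (also called Pet1; chromosome 1, 74920668 to 74924578), differed from the other serotonin markers. It was at 0.406, 0.200 and 0.359 CPM in controls and at 0.927, 3.53 and 1.21 CPM in MeHg, so that all 3 MeHg libraries lay above all 3 controls. Its counts were low, from 4 to 54, and MeHg replicate 2 was 2.91 times the next library (1.68 to 5.28). Its log2 fold change was 2.54 ± 0.61 (SE) with all libraries and 1.73 ± 0.51 without MeHg replicate 2, and that of Tph2 was 5.36 ± 1.68 and 0.86 ± 0.65. In Fev the other 2 MeHg libraries were above the controls as well, whereas Tph2 in MeHg replicate 1 lay within the control range.

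**Figure D1:**
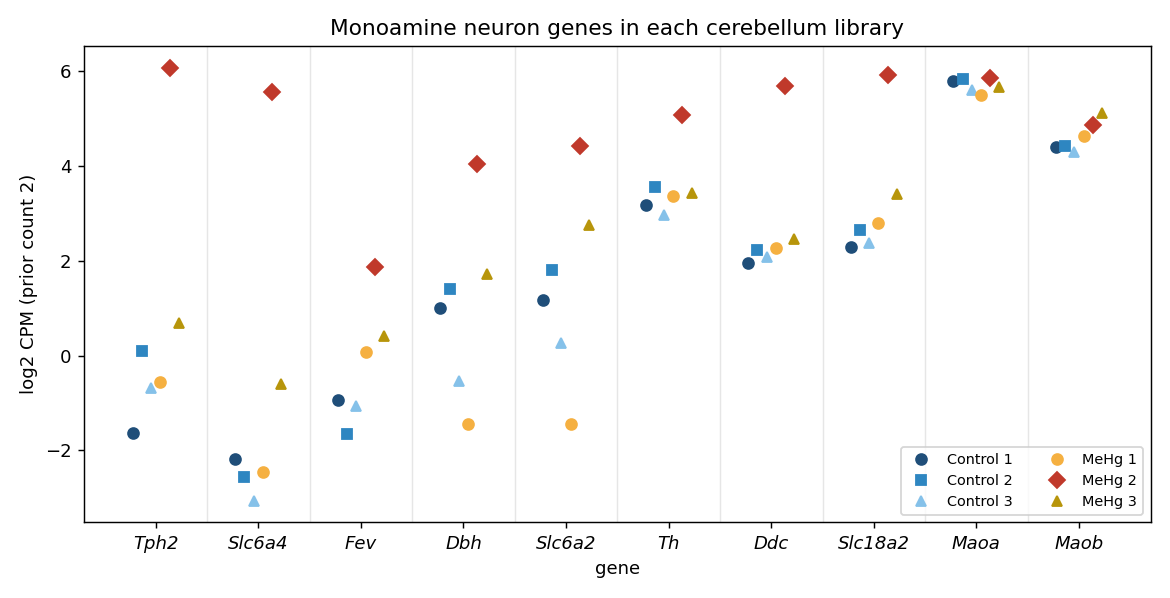
Level of each member (x axis) in each of the 6 libraries, as log2 CPM with a prior count of 2 (y axis); each point is 1 library, blue for controls and yellow to red for MeHg. MeHg replicate 2 (red diamonds) is highest, by a clear gap, for Tph2, Slc6a4, Fev, Dbh, Slc6a2, Th, Ddc and Slc18a2. The libraries lie close together for Maoa. For Maob all MeHg libraries are above the controls and MeHg replicate 3 is highest.

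Noradrenaline markers were raised in the same library, and they also differed among the remaining 5. Dbh, dopamine beta hydroxylase (chromosome 2, 27055245 to 27073212), was at 1.88, 2.54 and 0.575 CPM in controls and at 0.247, 16.4 and 3.17 CPM in MeHg. Slc6a2, the noradrenaline transporter (chromosome 8, 93686707 to 93728295), was at 2.13, 3.39 and 1.08 CPM in controls and at 0.247, 21.4 and 6.67 CPM in MeHg. In MeHg replicate 2 they were at 5.16 (3.77 to 7.21) and 3.21 (2.55 to 4.06) times the next library.

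Both genes placed the 6 libraries in the same order, from MeHg replicate 2 down through MeHg replicate 3, control replicates 2, 1 and 3, to MeHg replicate 1. MeHg replicate 1 held 4 counts of each. Among the 5 libraries without MeHg replicate 2, the highest level of Slc6a2 was 27.0 times the lowest and that of Dbh 12.8 times. On the log2 scale 0.332% of 16859 tested genes had a range over these 5 libraries at least as wide as that of Slc6a2, and 0.682% one at least as wide as that of Dbh. Tph2 did not follow this order: control replicate 1 had its lowest level and MeHg replicate 1 a middle one. Counting intervals of neighbours in these orders overlapped in part, so not every rank is resolved. Examples are Tph2 in control replicates 1 and 3 and MeHg replicate 1, and Dbh in MeHg replicate 3 and control replicate 2.

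By likeness of profile among 16858 other tested genes, leaving provisional symbols (such as Gm and Rik names) aside, Slc6a2 was the nearest to Dbh. The root mean square difference of their centred log2 CPM was 0.35 over all 6 libraries and 0.39 over the 5 without MeHg replicate 2, and the next genes were Slc10a4 at 0.64 and Sgcz at 0.61. This comparison for Dbh was chosen after its values were seen. The log2 fold change of Dbh was 1.93 ± 1.01 (SE) with all libraries and -0.02 without MeHg replicate 2, and that of Slc6a2 was 2.06 ± 0.97 and 0.61.

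**Figure D2:**
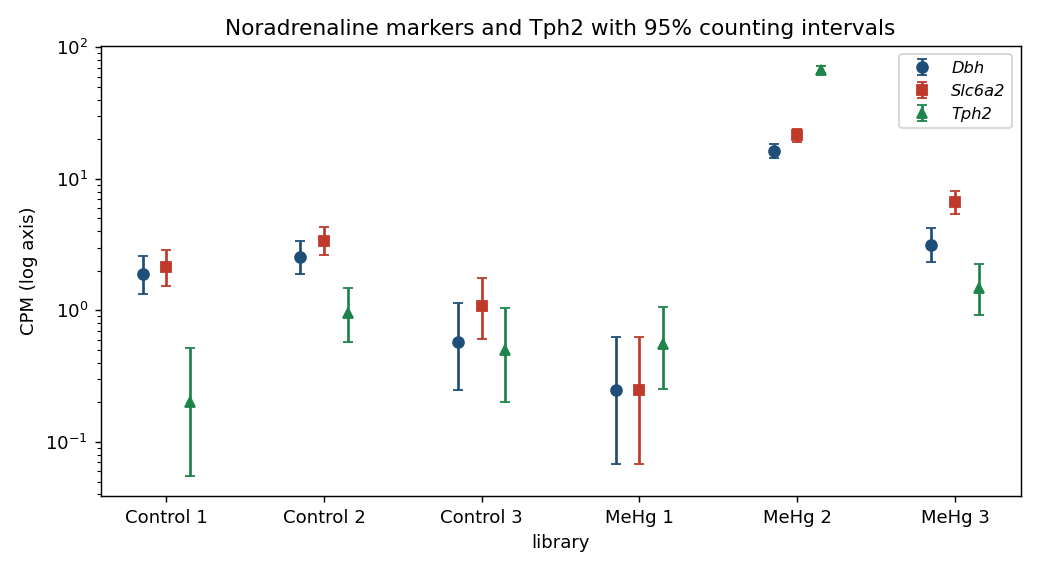
CPM on a log axis of Dbh, Slc6a2 and Tph2 in each of the 6 libraries (x axis), with 95% exact Poisson intervals for counting error as bars. Dbh and Slc6a2 are highest in MeHg replicate 2, next in MeHg replicate 3 and lowest in MeHg replicate 1, and Tph2 is at 67.5 CPM in MeHg replicate 2 and at most 1.48 CPM elsewhere.

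Genes used by more than 1 kind of monoamine neuron were raised in MeHg replicate 2 over a measurable level elsewhere. Th, tyrosine hydroxylase, the first enzyme of catecholamine synthesis (chromosome 7, 142446489 to 142484865), was at 8.88, 11.7 and 7.69 CPM in controls and at 10.2, 33.6 and 10.7 CPM in MeHg. Apart from MeHg replicate 2, at 2.88 times the next library (2.46 to 3.37), its levels lay within a 1.52-fold range and the groups overlapped.

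Ddc, the decarboxylase shared by the serotonin and catecholamine pathways (chromosome 11, 11764101 to 11848144), was at 3.75, 4.54 and 4.10 CPM in controls and at 4.70, 51.6 and 5.39 CPM in MeHg. It stood at 9.56 times the next library (7.59 to 12.2) in MeHg replicate 2. Slc18a2, the vesicular monoamine transporter (chromosome 19, 59249328 to 59284444), was at 4.77, 6.14 and 5.10 CPM in controls and at 6.80, 60.7 and 10.5 CPM in MeHg, a ratio of 5.77 (4.87 to 6.89) to the next library. For both genes all 3 MeHg libraries were above all 3 controls, although without MeHg replicate 2 the log2 fold changes were 0.30 ± 0.20 and 0.70 ± 0.22 instead of 2.31 ± 0.83 and 2.28 ± 0.72. In GENCODE M39 the Slc18a2 locus overlaps the protein-coding gene Pdzd8, on the opposite strand, over 11760 bases. How strand was treated in counting is not given in the sources used here, so reads from the pair cannot be told apart. Pdzd8 itself was at 56.9 to 73.9 CPM, with its highest level also in MeHg replicate 2. Ddc, Th, Dbh, Slc6a4 and Fev also overlap non-coding genes on the opposite strand in that annotation. One of these, Dbhos, overlaps Dbh there over 17885 bases but lies beside it by the deposited coordinates, and it had 0 to 3 counts per library.

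The monoamine oxidases, outer mitochondrial membrane enzymes that are also made by cells other than monoamine neurons, did not have this pattern. Maoa (X chromosome, 16485937 to 16554057) was at 55.5, 57.2 and 48.5 CPM in controls and at 45.1, 57.8 and 51.0 CPM in MeHg. MeHg replicate 2 exceeded control replicate 2 by a ratio of 1.01, with an interval of 0.925 to 1.10 that includes no difference. By the deposited FPKM, control replicate 2 was the highest library for Maoa.

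Maob (X chromosome, 16575521 to 16683605), which lies 21463 bases from Maoa in the opposite orientation, was at 20.9, 21.3 and 19.5 CPM in controls and at 24.9, 29.2 and 34.5 CPM in MeHg. Here MeHg replicate 3, not replicate 2, was highest, and all MeHg libraries lay above the controls. The log2 fold change of Maob was 0.52 ± 0.13 (SE) with all libraries and 0.54 ± 0.14 without MeHg replicate 2. The corresponding values for Maoa were -0.07 and -0.16.

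Of the 10 members, 9 were highest in MeHg replicate 2, 8 were there at least 2 times the next library, 5 at least 4 times and 3 at least 8 times. Slc6a4, which did not enter the fit, is in each of these counts. Of the 9 tested members 8 were highest in MeHg replicate 2 and 7 at least 2 times the next library. Over all 16859 tested genes the shares were 22.7%, 1.19%, 0.113% and 0.0237%, and since the members were chosen for this pattern the comparison is a description. The share of tested genes at least 2 times the next library was 0.0119%, 0.0178% and 0.0712% in control replicates 1 to 3, 0.0119% in MeHg replicate 1 and 0.338% in MeHg replicate 3. All MeHg libraries lay above all controls for 4 members (Fev, Ddc, Slc18a2 and Maob), as for 13.9% of tested genes (29.4% did not overlap in either direction). In the edgeR quasi-likelihood fit of MeHg against control, 0 of 9 members passed an adjusted p of 0.05, where 2.36% of all tested genes did, and 5 had an unadjusted p under 0.05 (24.5% of all). DESeq2 called 2 of them, Fev and Maob (8.27% of all genes), and gave no adjusted p for Tph2 and Ddc. Without MeHg replicate 2 the edgeR fit called 0 of 9 (6.33% of all). With no filter on low counts it called 9 of 10, all but Maoa (7.38% of all), with the replicate number as a block it called Tph2 (3.84%), and with labelled sex as a term Fev (3.61%). The library for which the members were chosen is 1 of the 3 MeHg libraries in these fits, so nothing is read from these counts. With all 6 libraries the median log2 fold change of the 9 members was 2.06, and it was 0.54 without MeHg replicate 2, against 0.01 over all tested genes in both fits.

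Levels per length were read from the deposited FPKM values (fragments scaled to gene length and library total), which allow genes to be compared with each other. In MeHg replicate 2 the order ran from Tph2 at 21.7 FPKM through Th (13.1), Maoa (12.8), Slc18a2 (10.8), Ddc (10.7), Maob (9.71) and Slc6a4 (9.62) to Dbh (5.62), Slc6a2 (3.15) and Fev (2.02). By the median of the other 5 libraries it ran from Maoa (11.5 FPKM) and Maob (7.14) through Th (4.04), Slc18a2 (1.10), Ddc (0.954), Dbh (0.656), Slc6a2 (0.319), Fev (0.236) and Tph2 (0.181) to Slc6a4 (0.0128). In those 5 libraries each gene's range overlapped that of the next, except between Maob and Th and between Th and Slc18a2. The excess of MeHg replicate 2 over that median was 21.5 FPKM for Tph2, 9.61 for Slc6a4 and 1.79 for Fev among serotonin markers. It was 4.97 for Dbh and 2.83 for Slc6a2, and 9.10, 9.75 and 9.66 for Th, Ddc and Slc18a2.

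**Figure D3:**
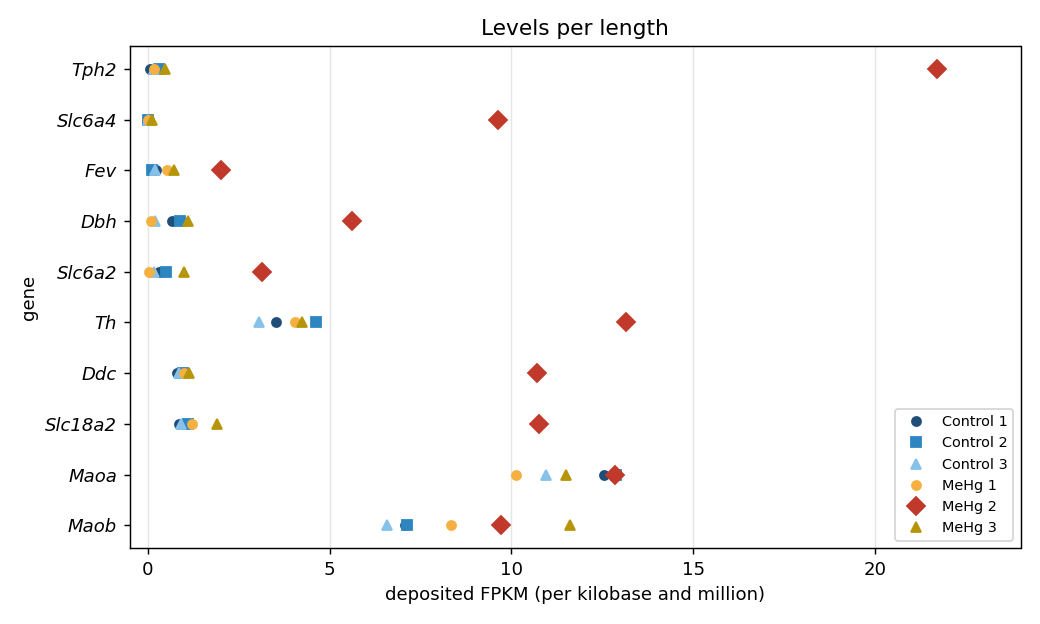
Deposited FPKM (x axis) of each member (y axis), 1 point per library. Tph2 moves from below 0.5 FPKM in the other libraries to 21.7 in MeHg replicate 2 (red diamond), whereas the points of Maoa all lie between 10.1 and 12.9.

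The other genes of the pathway were taken from 8 lists with 82 genes apart from the members, of which 56 were tested. None of the 56 passed the edgeR test (0, with 18 at an unadjusted p under 0.05, while DESeq2 called 7), and 23 of them (41.1%) were highest in MeHg replicate 2. Over all tested genes 24.5% had an unadjusted p under 0.05, 8.27% were called by DESeq2 and 22.7% were highest in MeHg replicate 2. Their median log2 fold change was 0.25. Outside the members, the widest gap above a library with any count was that of Slc6a3, the dopamine transporter and a defining marker of midbrain dopamine neurons. It had 0, 3 and 0 counts in controls and 0, 317 and 2 in MeHg, which is 20.7 CPM in MeHg replicate 2 and 139 times the next library (47.0 to 676). Slc6a3 did not pass the filter on low counts either.

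Of 8 other tested synthesis genes 4 were highest in MeHg replicate 2. Most of this list supplies tetrahydrobiopterin, the cofactor of both hydroxylases, and its genes differed. Gch1, the rate-limiting enzyme of the cofactor, was at 0.927 to 1.85 CPM in 5 libraries and at 8.05 CPM in MeHg replicate 2. Pcbd1, which regenerates the cofactor, was at 2.23 to 4.11 CPM and at 8.90 CPM there, and Qdpr, which also does, at 131 to 159 CPM and 183 CPM. Pts and Spr, which act after Gch1, were at 18.2 and 35.7 CPM in MeHg replicate 2, within their ranges of 16.1 to 20.5 and 32.0 to 43.6 CPM elsewhere, and Pcbd2 was at 5.56 CPM, within 4.67 to 8.49 CPM. Tph1, the hydroxylase of the pineal gland and gut, was at no more than 0.262 CPM in any library, and Pnmt, which makes adrenaline, had 0 counts in all 6. None of the 11 tested breakdown enzymes, which include the aldehyde dehydrogenase Aldh2, was highest in MeHg replicate 2.

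Transcription factors of serotonin neurons were highest in MeHg replicate 2 in 7 of 8 tested cases, with 0 called (edgeR adjusted p under 0.05) and 2 called by DESeq2. Gata3 reached 6.80 CPM in MeHg replicate 2 from 0.216 to 0.866 CPM in 5 libraries, and Lmx1b was at 0.659 to 1.82 CPM and 4.19 CPM. Gata2 was at 2.43, 2.44 and 2.52 CPM in controls and 5.01, 7.98 and 3.98 CPM in MeHg (log2 fold change 1.20 ± 0.27, edgeR adjusted p = 0.0545), so that its groups did not overlap. Without MeHg replicate 2 its log2 fold change was 0.88 ± 0.23 (edgeR adjusted p = 0.0515). Of 3 tested noradrenaline neuron factors 1, Rnf220, was highest in MeHg replicate 2. Tfap2b was lowest there, at 52.6 CPM against 55.9 to 67.8 CPM, and Tlx3 was at 10.5 CPM, within its range elsewhere. Phox2a, which did not enter the fit, had 0, 1 and 3 counts in controls and 0, 16 and 3 in MeHg. Of 6 tested dopamine neuron genes 3 were highest and 2 lowest in MeHg replicate 2. Pitx3 had 6 counts in MeHg replicate 2 and at most 2 elsewhere. Nr4a2 was lowest in MeHg replicate 2, at 9.22 CPM against 11.7 to 63.5 CPM, and is listed for dopamine neurons although other neurons make it.

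Serotonin receptors were highest in MeHg replicate 2 in 6 of 8 tested cases, and 0 of the 8 were called by either tool (median log2 fold change 1.04). Htr1a, the autoreceptor of serotonin neurons, was at 0.558 to 2.69 CPM in 5 libraries and at 10.9 CPM in MeHg replicate 2, and Htr7 at 0.964 to 2.83 CPM and 7.79 CPM. Htr2c, the receptor of this list with the highest level, was instead highest in MeHg replicate 3 (71.3 CPM, against 66.1 CPM in MeHg replicate 2 and 6.18 to 34.3 CPM in the others). Choroid plexus makes Htr2c, and the summed level of 13 choroid plexus markers was also highest in MeHg replicate 3. Their part in the level of Htr2c was not tested. Of 10 tested dopamine and adrenergic receptors 3 were highest in MeHg replicate 2, with 0 called by edgeR and 2 by DESeq2. Drd2 was at 1.17 to 4.99 CPM in 5 libraries and at 10.1 CPM in MeHg replicate 2.

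Several markers of other cells outside the cerebellar cortex were also highest in MeHg replicate 2. In MeHg replicate 2 the summed level of 10 cholinergic and motor neuron markers was 55.6 CPM, against 3.65 to 9.91 CPM in the other 5 libraries. Chat, the enzyme that makes acetylcholine, had 96 counts there and 1 to 13 elsewhere. Slc18a3, its vesicular transporter, had 87 counts and 0 to 7 elsewhere, and Slc5a7, the choline transporter, was at 14.7 CPM against 0.618 to 2.09 CPM. Slc10a4 (15.5 CPM in MeHg replicate 2) and Chrna6 (5.56 CPM) are part of the cholinergic sum and are on the dopamine neuron list as well. Calca was highest in MeHg replicate 3, at 3.10 CPM against 2.22 CPM in MeHg replicate 2. Mnx1, of spinal motor neurons, had no count in any library.

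A list of 16 genes made by midbrain and brainstem neurons summed to 1333 CPM in MeHg replicate 2 and to 737 to 899 CPM elsewhere. The largest parts of that sum were Nefm (292 CPM), Ahi1 (276 CPM), Nefh (236 CPM) and Slc32a1 (206 CPM). Each of these was at 138 CPM or more in every library, so the sum is not specific to those nuclei. Of 14 tested genes of this list 9 were highest in MeHg replicate 2, and 4 were at least 2 times the next library. Slc32a1, Slc6a5 and Lef1 were not highest in it, and Barhl1 was lowest there, at 21.5 CPM. Pax7, a midbrain roof factor, had 82 counts there and at most 8 in any other library. The neuropeptide gene Ucn, known from a small group of midbrain neurons, had 17 counts there and 0 in each of the others. Hox genes, which mark the hindbrain behind the cerebellum, were near 0 throughout: 17 of them summed to 2.09 CPM in MeHg replicate 2 and to 0 to 0.618 CPM elsewhere, and 4 had no count in any library. The neuropeptide precursors were highest in MeHg replicate 2 in 10 of 14 tested cases. Among them were Sst (34.5 CPM against 3.20 to 16.2 CPM) and Sncg, a synuclein gene placed on that list (20.6 CPM against 2.03 to 6.88 CPM). Cck (33.4 CPM against 35.3 to 55.5 CPM) and Npy (9.88 CPM against 10.9 to 16.3 CPM) were instead lowest in MeHg replicate 2.

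Other markers moved with MeHg replicate 2 to a smaller degree. Of 12 oligodendrocyte markers 11 were highest in it, with a sum of 9018 CPM against 5948 to 7381 CPM. Of 14 granule and Purkinje cell markers 13 were lowest in it, with a sum of 10055 CPM against 11310 to 14413 CPM. Haemoglobin genes were highest in it too, with Hba-a1 at 67.0 CPM against 24.5 to 39.6 CPM. The platelet marker Pf4, listed because platelets take up serotonin, was at 0.654 CPM there and at 0.247 to 0.741 CPM elsewhere, and the pineal enzymes Aanat and Asmt at 0.523 and 0.131 CPM, within their ranges elsewhere. Lhx4, a homeobox gene on the pineal list, had 22 counts in MeHg replicate 2 and 0 to 2 elsewhere. Choroid plexus markers did not follow the members, with a sum of 2626 CPM in MeHg replicate 2 and 167 to 10376 CPM in the others. In these bulk samples fewer or more cells of a type and less or more RNA per cell cannot be told apart, and the part of these other cells in the members' levels was not tested.

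**Figure D4:**
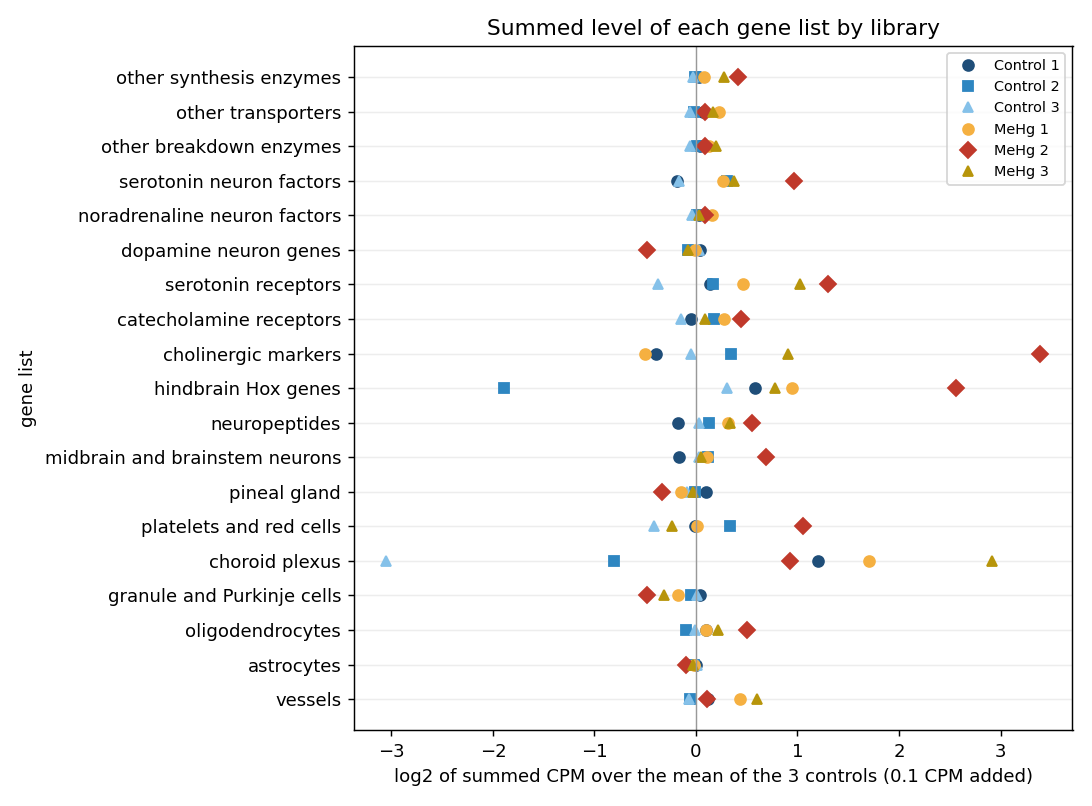
Summed CPM of each gene list (y axis) in each library, as the log2 ratio to the mean of the 3 controls after adding 0.1 CPM (x axis); each point is 1 library. MeHg replicate 2 (red diamonds) is farthest to the right for several lists. Among these are cholinergic markers (3.39), Hox genes (2.56, from sums of at most 2.09 CPM), serotonin receptors (1.30), platelets and red cells (1.05) and serotonin neuron factors (0.96). It is not for choroid plexus (0.93), where MeHg replicate 3 is at 2.91, and it is farthest to the left for granule and Purkinje cells (-0.48).

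Over all 19 lists other than the members, 7 of 152 tested genes were called in the edgeR fit, against the 2.36% of all tested genes, and all 7 came from marker lists. The granule cell and cerebellar genes Gabra6, Fat2, Etv1, Zic1 and En2 fell, as did Pax6, which was listed for the pineal gland but is also made by granule cells, and the endothelial gene Flt1 rose. Without MeHg replicate 2 all 7 passed again, among 18 listed genes. The number of listed genes called was 0 when control replicate 1, control replicate 3, MeHg replicate 1 or MeHg replicate 3 was left out and 4 when control replicate 2 was.

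Across the whole table, provisional symbols aside, 20 tested genes with the widest gap between MeHg replicate 2 and the next library were taken. They included 4 members, Tph2, Ddc, Slc18a2 and Dbh. Another 7 came from the lists (Slc10a4, Gata3, Slc5a7, Ecel1, Gch1, Htr1a and Tal1). The remaining ones were Irs4, Lamp5, Hcrtr1, Dgkk, Cpne7, Chrm3, Fibcd1, Chrnb3 and Gpr101. Irs4, an insulin receptor substrate, reached 9.81 CPM in MeHg replicate 2, from 0.457 to 1.01 CPM in the others. Hcrtr1, an orexin receptor, was at 5.89 CPM and at 0.287 to 1.17 CPM, and Chrnb3, a nicotinic receptor subunit, at 3.14 CPM and 0.124 to 0.698 CPM.

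Among tested genes, provisional symbols aside, the profiles nearest to those of Tph2, Th and Maoa were ranked. Slc6a4 and Slc6a3 were not tested and so could not be ranked. For Tph2 the nearest genes over the 6 libraries were Slc10a4, a vesicular transporter relative of cholinergic and monoamine neurons, at a root mean square difference of 1.07 on the log2 scale, then Slc5a7 (1.09), Irs4 (1.19), Gata3 (1.25) and Ddc (1.26). For Th they were much closer, with Gng4 (0.15), Syt17 (0.15), Gabrg3 (0.15), Gpr165 (0.16) and Oprl1 (0.16). For Maoa, which varied little, they were Foxp1 (0.03), Dcp1a (0.05), Zfp383 (0.05), Zdhhc16 (0.05) and Upf2 (0.05). The log2 gaps between MeHg replicate 2 and the next library also differed, at 5.40 for Tph2, 1.51 for Th and 0.02 for Maoa. Whether the distances depend on the role of the gene was not tested.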

How the data were processed

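Cerebellum RNA of 6 mice was sequenced as paired reads of 150 bases, per the labels' protocols. The submitters' processing notes name mm39 and DESeq2. For the aligner, the counter, the annotation release and the treatment of strand, the answer is: not given in the sources used here. Raw read counts per gene make up the count table as deposited by the authors. The authors' FPKM equal the count divided by gene length and by a total 1.04 to 1.09 times each library's summed counts. The 2 group-mean columns of the FPKM table were not used.

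CPM were computed from the counts and TMM-scaled library sizes. All genes passing filterByExpr were fitted with edgeR 4.0.16 (R 4.3.3, quasi-likelihood F test, group as the only term), with Benjamini-Hochberg adjustment over 16859 genes and a threshold of 0.05. The SE is the absolute log2 fold change divided by the square root of F. Log2 CPM use a prior count of 2. Intervals are exact at 95%. The procedure was tested on simulated counts. No 2 libraries of a group were copies (chi-square per degree of freedom 7.77 to 19.7).

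The members, the 19 gene lists and the tests were chosen with earlier results of these data known. Genes named are the members, called list genes, per list up to 5 tested genes with the widest gap between MeHg replicate 2 and the next library, the 20 such genes of the whole table, the 5 genes most like Tph2, Th and Maoa, and genes used as level references. Some genes named beside these were chosen after their values were seen: the members' neighbours Pdzd8 and Dbhos, Sgcz, Hba-a1, Pf4 and list genes that did not enter the fit or are given to show a low or even level.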

Additional observations from a re-analysis of the deposited data

How the results depend on the processing

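The number of genes called over the whole table, 398 in the edgeR fit, was 197 with upper-quartile scaling (78 higher and 119 lower, against 97 and 301), 609 with labelled sex as a term, 1394 with DESeq2 1.42.0 and 2378 with no filter on low counts. It ran from 0 to 1091 when 1 library was left out: 0 with any of control replicate 1, control replicate 3 and MeHg replicate 3 left out (unadjusted p under 0.05 in 3042, 2572 and 3099), 2 when MeHg replicate 1 was, 220 when control replicate 2 was, and 1091 when MeHg replicate 2 was. Of the listed genes other than members, 7 were called, against 15 with labelled sex, 30 with DESeq2, 85 with no filter, and 0 to 18 with 1 library left out. With the replicate number as a block, 648 genes and 16 listed genes were called, and of the members Tph2. The numbers did not pair the libraries: deviations from the group means correlated at 0.19, 0.35 and -0.24 for numbers 1, 2 and 3, and control replicate 1 was closest to MeHg replicate 3 (0.36). The count of members highest in MeHg replicate 2 was 8 by FPKM and 9 by the other scales. Of 108 alternative fold changes of members, 5 moved by more than the spread between replicates, all without MeHg replicate 2: Tph2 (0.86), Ddc (0.30), Th (0.15), Slc18a2 (0.70) and Fev (1.73). Without that library Dbh also fell, from 1.93 to -0.02, and Slc6a2 from 2.06 to 0.61. These falls counted as within the spread between replicates, so the noradrenaline markers depended on that library too. The 30 alternative gaps stayed within their counting intervals. Slc6a4 and Slc6a3, seen at depth in 1 library, could be fitted only without the filter.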
